A study of Arabidopsis thaliana with 12 samples.

Results

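The UDP-glycosyltransferases (UGTs) of Arabidopsis leaves were followed through induction of the C-terminal part of CPR5. Members were the probe sets whose only gene has a current symbol of UGT followed by a digit. There were 47 such probe sets, for 47 genes, among the 22746 that were tested, and the gene table names 58 UGT loci in all. They fall into 11 families, of which UGT71 has 9 members, UGT76 has 8, UGT73 has 7, UGT84 and UGT85 have 5 each, UGT72 has 4, UGT74 and UGT78 have 3 each, and UGT80, UGT87 and UGT88 have 1 each.

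The study asked how leaf transcripts change when this fragment, described by the submitters as interfering with native CPR5, is produced. Plants were 4 weeks old, all in the Col-0 background, and mature leaves were taken 24 hours after a spray. The groups were CPR5-C leaves (genotype Dex:YFP-CPR5-C, a dexamethasone-inducible YFP fusion) given 50 µM dexamethasone, CPR5-C leaves given water, wild-type (WT) leaves given 50 µM dexamethasone, and WT leaves given water. Each group had 3 arrays, labelled as biological replicates, so the 12 Affymetrix ATH1 arrays gave 3 values a group. The sources used here name no promoter beyond the dexamethasone-inducible system and no number of independent transgenic lines. No named probe set measured CPR5, so induction of the transgene was not checked.

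UGTs move a sugar from a UDP-sugar donor onto small molecules such as hormones, flavonoids, phenylpropanoids, the precursors of glucosinolates, and foreign compounds. Conjugation usually makes the acceptor more soluble, less active and fit for storage in the vacuole, and β-glucosidases can release it again. Plants carry many UGT genes, often in tandem on a chromosome, and family numbers follow protein similarity, so that members of 1 family can have different acceptors.

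Values are log2 signals that the authors had centred on the median of the 12 arrays for each probe set. A value of 0 is therefore the middle of the arrays for that gene, not absence, and neither levels of different genes nor the leaf identity of the samples could be compared with it. A difference of 1 between groups is a doubling. A probe set was called at a limma adjusted p under 0.05 (Benjamini-Hochberg over all 22746 probe sets, two-sided), and SE is the standard error of the difference. Over all probe sets the centred values had an SD per array of 0.68 to 0.69 in CPR5-C leaves with dexamethasone, 0.13 to 0.16 in CPR5-C leaves with water and in WT leaves with dexamethasone, and 0.19 to 0.23 in WT leaves with water. Leaves hold several cell types, and fewer cells of a type cannot be told apart from less RNA per cell.

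Dexamethasone in CPR5-C leaves moved UGT genes in both directions. UGT84A3, which esterifies hydroxycinnamic acids with glucose, rose the most, and UGT74B1, which S-glucosylates thiohydroximates in the core pathway of glucosinolate synthesis, fell the most. Of the 47 members 13 were called higher and 13 lower against CPR5-C leaves with water, which is 55.3% called. Over all probe sets 47.9% were called, 23.3% higher and 24.6% lower. The members' share was thus somewhat above that of the array as a whole, a difference that was not tested. Members are single-gene probe sets, and when the 13513 single-gene probe sets were tested alone, 42.9% of them were called. Their median change was 0.03, against -0.02 for all probe sets, and changes ran from -1.6 to 1.84. A change of at least 1 together with a call was seen for 3 higher members and 1 lower member, while 10.7% of all probe sets met that rule. On 30 of the 47 probe sets the 3 arrays of one group did not overlap the 3 of the other, beside 55.1% of all probe sets.

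The lower calls in CPR5-C leaves depended on how arrays were scaled. Bacterial poly-A transcripts, which laboratories add to RNA as spikes, are among the control probe sets. Their mean centred value was -0.46, -0.59 and -0.09 on the CPR5-C dexamethasone arrays, against 0.08, 0.07 and -0.05 on the CPR5-C water arrays. WT arrays gave 0.27, 0.06 and 0.10 with dexamethasone, against 0.03, -0.14 and 0.02 with water. The spikes thus also varied within groups, and which scaling is nearer the truth was not tested. When arrays were scaled to these spikes the median change of all probe sets in CPR5-C leaves became 0.39, and 87.8% of all calls were higher, against 48.7% in the deposited scaling. This scaling subtracts 1 value from each array, so the change of every probe set moves by the same amount. With that scaling 30 members were called higher and 1 lower, beside 66.9% of all probe sets called. Their median became 0.44, by the same shift as all probe sets and by construction. All 13 members called higher in the deposited scaling were moved further up by this shift and were also called higher with spikes. A further 12, positive but not called in the deposited scaling, were UGT71B5, UGT71B8, UGT71C2, UGT72E2, UGT72E3, UGT73B5, UGT73D1, UGT74F1, UGT76B1, UGT76D1, UGT78D3 and UGT84A1. The others called higher with spikes, UGT71B6, UGT76E1, UGT76E2, UGT80B1 and UGT84B1, had small negative changes and no call in the deposited scaling. Of the 13 called lower, UGT74B1 was also called lower with spikes (-1.19), 9 kept their sign without a call, and UGT71C4, UGT73B4 and UGT73C7 turned to positive values of 0.24, 0.14 and 0.2 without a call.

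**Figure D1:**
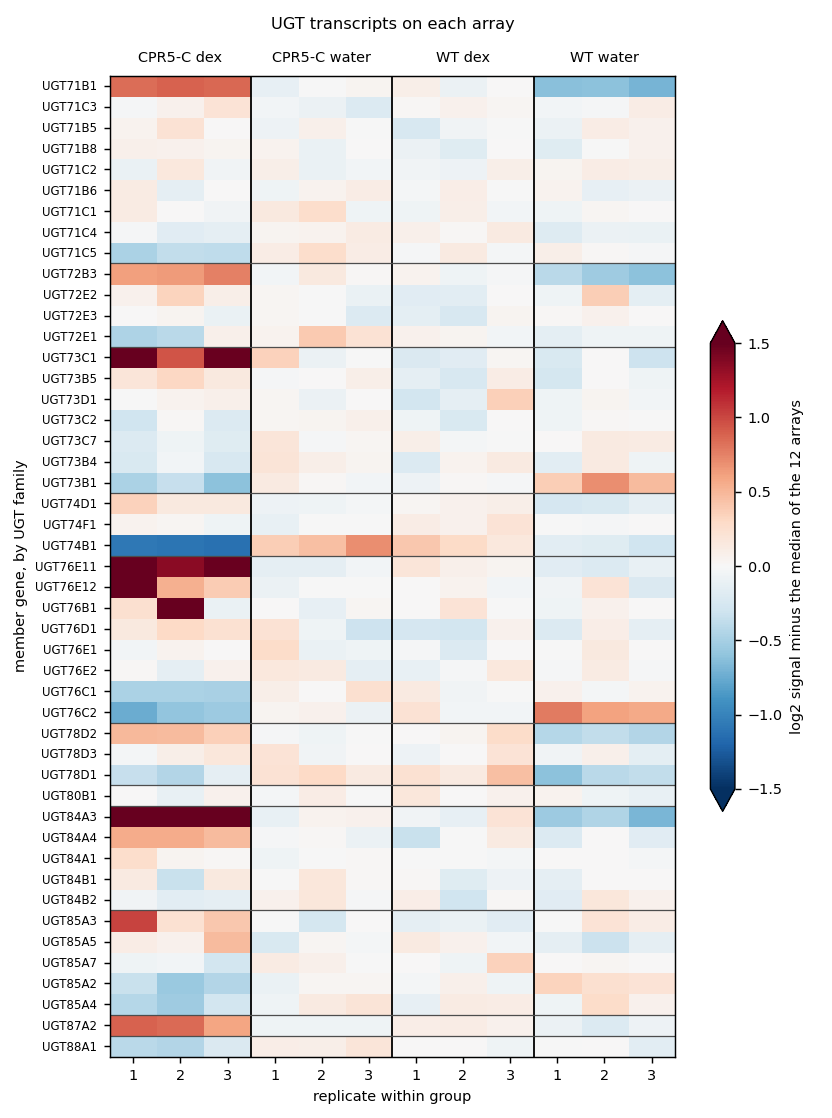
Centred log2 signal of the 47 UGT genes (rows, by family) on the 12 arrays (columns, 3 per group), with colour from -1.5 to 1.5 and values beyond that at the end colours. CPR5-C dexamethasone arrays carry the strongest colours in both directions, and WT water arrays carry a second, weaker set, for example UGT71B1 at -0.63, -0.61 and -0.7.

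**Figure D2:**
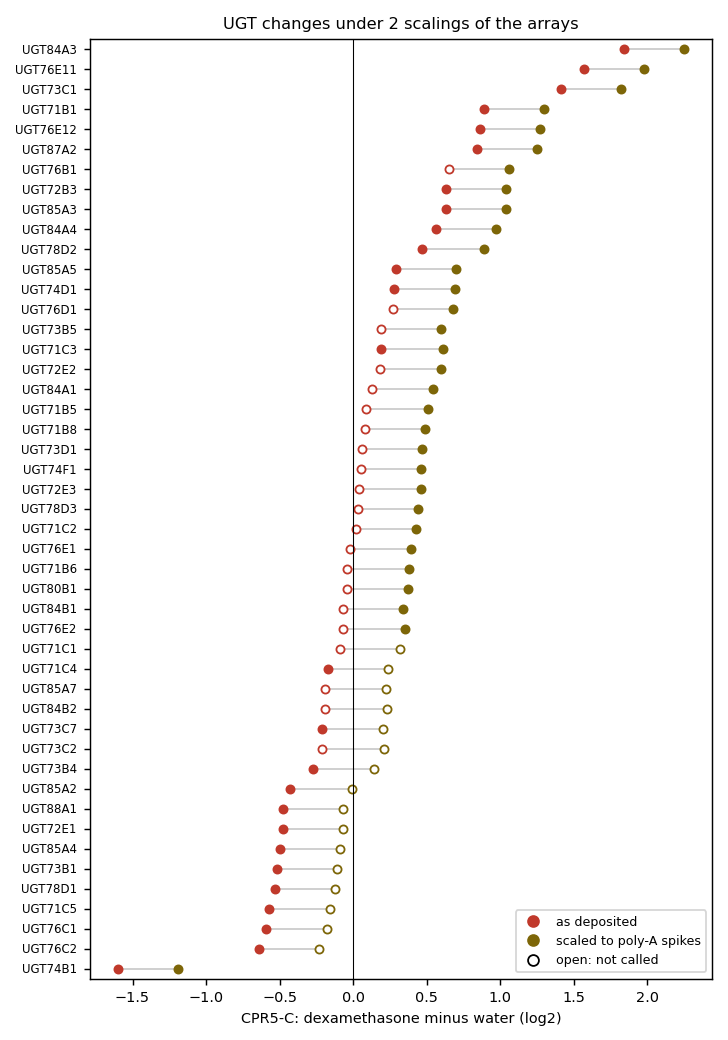
Change with dexamethasone in CPR5-C leaves (log2, x axis) for each UGT gene, in the deposited scaling and with arrays scaled to poly-A spikes; filled points were called. Scaling moved every gene to the right by the same amount, so that 13 lower calls became 1, UGT74B1 at -1.19.

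Fewer members were called with dexamethasone in WT leaves, which carry no transgene. Against WT water, 8 members were called higher and 3 lower, or 23.4% of the 47. Over all probe sets 9.08% were called, 5.07% higher and 4.01% lower, so the members' share was above that of the array, a difference that was not tested. Changes ran from -0.6 to 0.74, with a median of 0.02 against 0.0 for all probe sets, and no called member changed by 1 or more. With spike scaling 1 member was called higher, UGT78D1, and 2 lower, UGT76C2 and UGT73B1, beside 4.34% of all probe sets called. The members' median was -0.15 and that of all probe sets -0.17, and 13.3% of all calls were then higher, against 55.9% in the deposited scaling.

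The 2 dexamethasone responses were compared by an interaction term, the change in CPR5-C leaves minus the change in WT leaves. It called 7 members with a more positive change in CPR5-C leaves and 8 with a more negative one, or 31.9% of the 47, beside 38.5% of all probe sets (18.1% and 20.4%). Of single-gene probe sets tested alone, 33.7% had a called interaction. The members' median difference was 0.01, as for all probe sets. Of the members 6 were called higher in both genotypes: UGT71B1, UGT72B3, UGT74D1, UGT76E11, UGT78D2 and UGT84A3. Of all probe sets 2.22% had that pattern. UGT73B1, UGT76C2 and UGT85A2 were called lower in both, as were 2.47% of all probe sets. UGT74B1 and UGT78D1 were called lower in CPR5-C leaves and higher in WT leaves, as were 1.62%. A higher call in CPR5-C leaves and none in WT leaves was made for 7 members (20.3% of all probe sets), and 5 of these had a called interaction. A lower call in CPR5-C leaves and none in WT leaves was made for 8 members (20.5% of all probe sets), of which 6 had a called interaction. UGT71C3, UGT85A5, UGT73B4 and UGT73C7 had no called interaction in the deposited scaling, and for UGT85A5 the changes were 0.29 in CPR5-C leaves and 0.25 in WT leaves. In neither genotype were 21 members called, beside 50.1% of all probe sets. The interaction of 6 of the 8 with a more negative change was no longer called with spikes, where 32 members had a more positive and 2 a more negative change, beside 68.2% of all probe sets called, and the median of all probe sets was 0.59. There 93.3% of all interaction calls were more positive, against 47.1% in the deposited scaling.

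**Figure D3:**
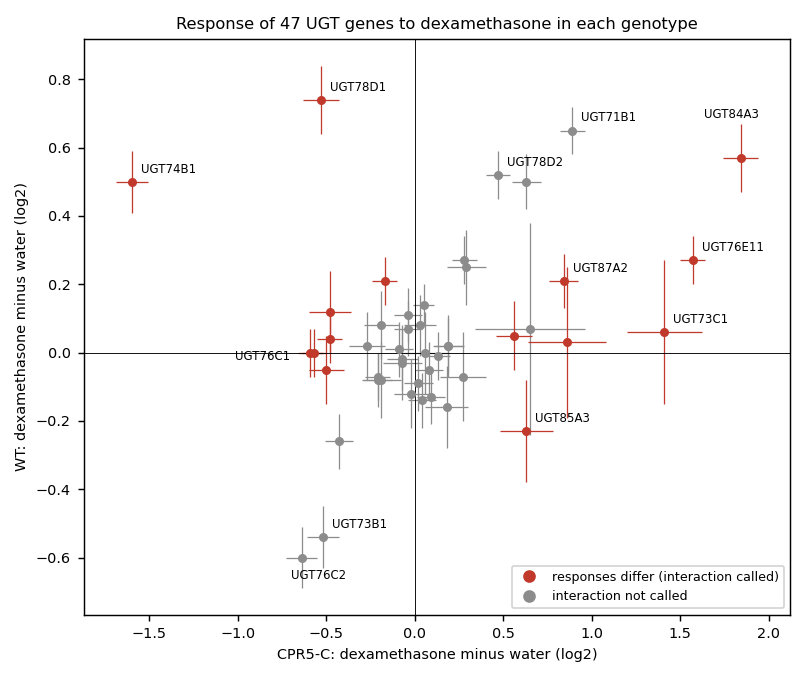
Change with dexamethasone (log2) in CPR5-C leaves (x axis) and in WT leaves (y axis) for the 47 UGT genes, with bars of 1 SE; red points had a called interaction. UGT74B1 (-1.6 and 0.5) and UGT78D1 (-0.53 and 0.74) lie in the upper left in the deposited scaling, while UGT84A3 and UGT76E11 lie far to the right.

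Glucosinolate conjugation is represented by UGT74B1 (AT1G24100), an S-glucosyltransferase. Its centred values were -1.07, -1.09 and -1.12 in CPR5-C leaves with dexamethasone, against 0.37, 0.45 and 0.7 in CPR5-C leaves with water. In WT leaves they were 0.41, 0.29 and 0.16 with dexamethasone, against -0.16, -0.18 and -0.3 with water. The CPR5-C dexamethasone arrays lay below all other arrays, and the WT dexamethasone arrays lay above all WT water arrays. UGT74B1 fell by 1.6 in CPR5-C leaves (SE 0.09, 3.04-fold, limma adjusted p = 1.38e-09) and rose by 0.5 in WT leaves (SE 0.09, limma adjusted p = 0.00206). The interaction was -2.1 (SE 0.13, limma adjusted p = 8.95e-09) and was also called with spike scaling, at -1.51. The rise in WT leaves was not called with spikes, at 0.32.

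UGT74C1, at locus AT2G31790, is listed under its locus tag and so is no member; it is named because earlier results of these data showed it. It is a relative of UGT74B1 linked to glucosinolate synthesis. Its change in CPR5-C leaves was -2.01 and its change in WT leaves was 0.39, both called in the deposited scaling. Of 21 other loci of glucosinolate synthesis 3 had a named single-gene probe set. BCAT4, the aminotransferase that starts methionine chain elongation, fell by 4.24 in CPR5-C leaves (SE 0.46, limma adjusted p = 1.8e-06), and GSTU20, a glutathione transferase of the same route, fell by 3.24. AOP3, which modifies side chains, rose by 0.29.

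The flavonoid group held 3 members, the UGT78D genes, and they differed. UGT76E11, which can also glucosylate flavonoids, was not placed in this group and is described with the members without a group. UGT78D1 (AT1G30530) adds rhamnose and UGT78D2 (AT5G17050) adds glucose at the same position of flavonols, and UGT78D3 adds arabinose there. UGT78D1 stood at -0.35, -0.44 and -0.14 in CPR5-C leaves with dexamethasone, against 0.22, 0.3 and 0.14 in CPR5-C leaves with water. WT leaves gave 0.23, 0.14 and 0.45 with dexamethasone, against -0.61, -0.41 and -0.37 with water. Neither pair of groups overlapped, and the WT water arrays overlapped the CPR5-C dexamethasone arrays. In CPR5-C leaves UGT78D1 fell by 0.53 (SE 0.10, limma adjusted p = 0.000408), a call that was lost with spikes (-0.12). In WT leaves it rose by 0.74 (SE 0.10, limma adjusted p = 0.000222), and the interaction of -1.27 was also called with spikes.

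UGT78D2 stood at 0.49, 0.48 and 0.36 in CPR5-C leaves with dexamethasone, against -0.02, -0.07 and -0.01 with water. Its WT values were 0.01, 0.04 and 0.27 with dexamethasone, against -0.43, -0.37 and -0.44 with water. Both genotypes were higher with dexamethasone without overlap. The changes were 0.47 in CPR5-C leaves and 0.52 in WT leaves (SE 0.07 each), and the second was not called with spikes. The interaction was -0.04, with a 95% interval from -0.27 to 0.18, and became 0.54, with a call, with spikes. UGT78D3 was not called in either genotype in the deposited scaling, at 0.03 in CPR5-C leaves (95% interval -0.18 to 0.23) and 0.08 in WT leaves (-0.12 to 0.28). Of 20 flavonoid synthesis loci 3 had a named single-gene probe set: CHIL, a chalcone isomerase-like protein, fell by 1.09 in CPR5-C leaves (SE 0.16, limma adjusted p = 3.37e-05), while DFR (-0.11) and AT5MAT (0.12) were not called.

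Phenylpropanoid conjugation had 7 members, of which 2 rose and 1 fell in CPR5-C leaves and 1 rose in WT leaves in the deposited scaling. These are 42.9% called in CPR5-C leaves and 14.3% in WT leaves, beside 47.9% and 9.08% of all probe sets. UGT84A3 (AT4G15490) stood at 1.95, 1.9 and 1.68 in CPR5-C leaves with dexamethasone, against -0.11, 0.05 and 0.07 with water. Its WT values were -0.05, -0.12 and 0.21 with dexamethasone, against -0.54, -0.45 and -0.69 with water. The CPR5-C dexamethasone arrays were above and the WT water arrays below all others. UGT84A3 rose by 1.84 in CPR5-C leaves (SE 0.10, 3.59-fold, limma adjusted p = 1.2e-09) and by 0.57 in WT leaves (SE 0.10, limma adjusted p = 0.00186). The rises differed by 1.27 (SE 0.14, limma adjusted p = 4.86e-06), and the rise in WT leaves was not called with spikes.

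UGT84A4 (AT4G15500), the neighbouring gene with like acceptors, stood at 0.56, 0.56 and 0.47 in CPR5-C leaves with dexamethasone, against -0.02, 0.02 and -0.09 with water. Its WT values were -0.33, -0.01 and 0.13 with dexamethasone, against -0.21, 0.01 and -0.17 with water, and these overlapped. It rose by 0.56 (SE 0.10, limma adjusted p = 0.000265) in CPR5-C leaves, while its WT change of 0.05 was not called. UGT84A1, on the other side of UGT84A3 and active on the same acids, changed by 0.13 in CPR5-C leaves (95% interval -0.02 to 0.28) and was not called in the deposited scaling. The 3 UGT72E genes glucosylate monolignols and their aldehydes. UGT72E1 stood at -0.46, -0.4 and 0.08 in CPR5-C leaves with dexamethasone, against 0.05, 0.39 and 0.22 with water, so that 1 dexamethasone array overlapped the water arrays. WT leaves gave 0.06, 0.04 and -0.04 with dexamethasone, against -0.15, -0.07 and -0.07 with water. It fell by 0.48 (SE 0.12, limma adjusted p = 0.0038), a call lost with spikes. UGT72E2 (0.18), UGT72E3 (0.04) and UGT71C1 (-0.09) were not called in CPR5-C leaves in the deposited scaling. With spikes UGT72E2 (0.6) and UGT72E3 (0.46) were called higher, and UGT71C1 turned positive without a call.

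Both cytokinin N-glucosyltransferases with a probe set were lower in CPR5-C leaves with dexamethasone in the deposited scaling, and neither was called with spikes, at -0.18 for UGT76C1 and -0.23 for UGT76C2. UGT76C1 (AT5G05870) stood at -0.47, -0.48 and -0.49 in CPR5-C leaves with dexamethasone, against 0.09, 0.01 and 0.24 with water. The values in WT leaves were 0.13, -0.05 and -0.01 with dexamethasone, against 0.07, -0.03 and 0.05 with water. Only the CPR5-C dexamethasone arrays stood apart from the other arrays of this gene. It fell by 0.59 in CPR5-C leaves (SE 0.07, limma adjusted p = 7.02e-06), with an interaction of -0.59 (SE 0.10, limma adjusted p = 0.000318) that was not called with spikes (-0.00, limma adjusted p = 0.993).

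UGT76C2 (AT5G05860), its neighbour on the chromosome, stood at -0.75, -0.59 and -0.55 in CPR5-C leaves with dexamethasone, against 0.04, 0.07 and -0.09 with water. In WT leaves it stood at 0.22, -0.04 and -0.04 with dexamethasone, against 0.78, 0.6 and 0.57 with water. The WT water arrays were above and the CPR5-C dexamethasone arrays below all others. It fell by 0.64 in CPR5-C leaves (SE 0.09, limma adjusted p = 2.86e-05) and by 0.6 in WT leaves (SE 0.09, limma adjusted p = 0.000544). The difference between these falls was -0.04 (95% interval -0.31 to 0.23), and 0.55, with a call, with spikes.

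Of 3 enzymes of abscisic acid glucose ester formation 1 was called in CPR5-C leaves in the deposited scaling. Of all probe sets 47.9% were. UGT71C5 (AT1G07240) stood at -0.48, -0.37 and -0.38 with dexamethasone, against 0.11, 0.26 and 0.11 with water, without overlap. In WT leaves the values were -0.02, 0.13 and -0.03 with dexamethasone, against 0.09, 0.02 and -0.02 with water. It fell by 0.57 (SE 0.07, limma adjusted p = 8.73e-06), a call lost with spikes (-0.16), and its interaction of -0.57 became 0.02 with spikes. UGT71B6 changed by -0.04 in CPR5-C leaves in the deposited scaling and by 0.38 with spikes, and only the second was called (limma adjusted p = 0.0315). UGT71B8 stood at 0.08, 0.06 and 0.04 in CPR5-C leaves with dexamethasone, against 0.05, -0.1 and 0.0 with water. WT leaves gave -0.09, -0.18 and 0.0 with dexamethasone, against -0.18, -0.01 and 0.06 with water. The change of UGT71B8 in CPR5-C leaves, 0.08 (95% interval -0.09 to 0.24), was not called in the deposited scaling, and its 0.49 with spikes was called.

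Auxin conjugation had 3 members. UGT74D1 (AT2G31750), which acts on auxin and its oxidised form, stood at 0.35, 0.15 and 0.15 in CPR5-C leaves with dexamethasone, against -0.08, -0.07 and -0.03 with water. WT leaves gave 0.03, 0.07 and 0.09 with dexamethasone, against -0.25, -0.23 and -0.13 with water. The rises of 0.28 in CPR5-C leaves and 0.27 in WT leaves (SE 0.07 each) gave an interaction of 0.01 (95% interval -0.20 to 0.22) in the deposited scaling. With spikes the WT change of 0.09 was not called (limma adjusted p = 0.708), and the interaction of 0.59 was (limma adjusted p = 0.0175). UGT84B1 and UGT84B2, the other enzymes with auxin as an acceptor, were not called in either genotype in the deposited scaling, at -0.07 and -0.19 in CPR5-C leaves. With spikes UGT84B1 was called higher in CPR5-C leaves (0.34, limma adjusted p = 0.0488), and UGT84B2 was positive without a call (0.23). UGT84B2 stood at -0.05, -0.16 and -0.13 in CPR5-C leaves with dexamethasone, against 0.07, 0.17 and -0.02 with water. Its WT arrays, at 0.1, -0.3 and 0.02 with dexamethasone, against -0.17, 0.17 and 0.06 with water, overlapped.

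Of 4 members that act on salicylate, related benzoates or other immune signals, UGT71C3 was called higher in CPR5-C leaves and none was called in WT leaves in the deposited scaling. Of all probe sets 23.3% were called higher in CPR5-C leaves there. All 4 members were called higher in CPR5-C leaves with spikes, where 66.9% of all probe sets were called and 87.8% of those calls were higher. UGT71C3, which glucosylates methyl salicylate, stood at -0.02, 0.06 and 0.21 in CPR5-C leaves with dexamethasone, against -0.04, -0.09 and -0.21 with water. WT leaves gave 0.02, 0.06 and 0.03 with dexamethasone, against -0.04, -0.02 and 0.11 with water. The CPR5-C groups did not overlap, though they nearly touched. Its rise of 0.19 (SE 0.08, limma adjusted p = 0.0457) kept its call in 4 of the 12 fits that each left out 1 array, with values from 0.13 to 0.25. UGT76B1, singled out after its values were seen, which conjugates isoleucic acid, salicylate and N-hydroxypipecolic acid, stood at 0.24, 1.72 and -0.1 in CPR5-C leaves with dexamethasone, against 0.0, -0.12 and 0.03 with water. One dexamethasone array was far above the others, and the change of 0.65 (SE 0.31) was not called (limma adjusted p = 0.104), unlike the 1.06 with spikes. Without replicate 2 of the CPR5-C dexamethasone group the change was 0.1, and without replicate 3 it was 1.01 and was called (limma adjusted p = 0.0091). UGT76D1, for dihydroxybenzoates, stood at 0.15, 0.3 and 0.23 in CPR5-C leaves with dexamethasone, against 0.22, -0.06 and -0.31 with water. WT leaves gave -0.25, -0.28 and 0.06 with dexamethasone, against -0.21, 0.1 and -0.14 with water. Both pairs of groups overlapped, and the change of 0.27 in CPR5-C leaves was not called in the deposited scaling, except without replicate 1 of the CPR5-C water group (0.41). With spikes it was 0.68 and was called (limma adjusted p = 0.000243). UGT74F1, for salicylate, changed by 0.05 without a call in the deposited scaling and by 0.46 with a call with spikes.

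Stress responses and detoxification of foreign compounds were covered by 4 members. UGT73C1 (AT2G36750), which can conjugate the explosive TNT, stood at 2.07, 0.94 and 1.48 in CPR5-C leaves with dexamethasone, against 0.35, -0.09 and -0.01 with water. The WT values were -0.22, -0.17 and 0.03 with dexamethasone, against -0.23, 0.01 and -0.31 with water. The CPR5-C dexamethasone arrays lay above all others, with a wide spread among them. UGT73C1 rose by 1.41 in CPR5-C leaves (SE 0.21, 2.66-fold, limma adjusted p = 4.38e-05), and its WT change was 0.06 (95% interval -0.39 to 0.51). The interaction was 1.35 (SE 0.30, limma adjusted p = 0.00189). UGT73C2, the next gene on the chromosome, changed by -0.21 in CPR5-C leaves and was not called (limma adjusted p = 0.0591), although it was called without replicate 2 of the CPR5-C dexamethasone group (-0.3) or replicate 2 of the WT dexamethasone group (-0.21), and it was positive with spikes (0.21) without a call.

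UGT73B1 (AT4G34138) stood at -0.47, -0.35 and -0.62 in CPR5-C leaves with dexamethasone, against 0.14, 0.02 and -0.04 with water. Its WT values were -0.08, 0.02 and -0.02 with dexamethasone, against 0.37, 0.7 and 0.47 with water. As for UGT76C2, the WT water arrays were the highest and the CPR5-C dexamethasone arrays the lowest. The falls were 0.52 in CPR5-C leaves and 0.54 in WT leaves (SE 0.09 each), and the first was not called with spikes (-0.11), where the interaction of 0.61 was called. UGT73B4 was called lower in CPR5-C leaves (-0.27, SE 0.10, limma adjusted p = 0.0373), turned positive with spikes, and lost its call without replicate 1 (-0.24) or 3 (-0.24) of the dexamethasone group or replicate 1 (-0.23) or 2 (-0.28) of the water group. UGT73B5 (0.19) was not called in the deposited scaling and was called higher with spikes (0.6). Sterol glucosylation had 1 member, UGT80B1, at 0.0, -0.11 and 0.07 in CPR5-C leaves with dexamethasone, against -0.03, 0.11 and -0.01 with water. WT leaves gave 0.17, 0.0 and 0.06 with dexamethasone, against 0.05, -0.06 and -0.11 with water. It was called in neither genotype in the deposited scaling, with changes of -0.04 in CPR5-C leaves and 0.11 in WT leaves. With spikes it was called higher in CPR5-C leaves (0.37, limma adjusted p = 0.029).

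**Figure D4:**
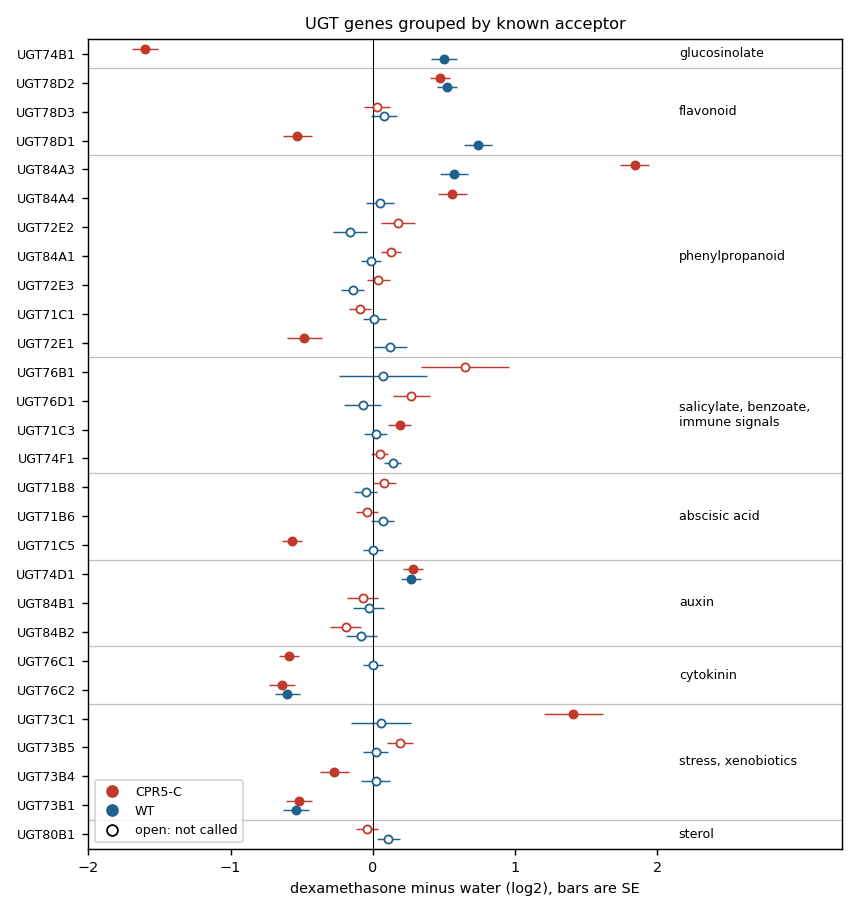
Change with dexamethasone (log2, x axis, bars of 1 SE) of the 28 UGT genes with a named acceptor group, in CPR5-C leaves (red) and WT leaves (blue); filled points were called. No acceptor group with more than 2 members was called in 1 direction throughout, and UGT74B1 and UGT78D1 carry filled points on both sides of 0, in the deposited scaling.

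The 19 remaining members have no acceptor group here, and 7 of them rose and 5 fell in CPR5-C leaves in the deposited scaling. That is 63.2% called, beside 47.9% of all probe sets, a difference that was not tested. UGT76E11 (AT3G46670), which can glucosylate flavonoids, stood at 1.57, 1.35 and 1.48 in CPR5-C leaves with dexamethasone, against -0.13, -0.14 and -0.04 with water. The values in WT leaves were 0.18, 0.08 and 0.04 with dexamethasone, against -0.17, -0.21 and -0.11 with water. The CPR5-C dexamethasone arrays lay far above all others, and the WT groups did not overlap. UGT76E11 rose by 1.57 in CPR5-C leaves (SE 0.07, 2.97-fold, limma adjusted p = 1.87e-10) and by 0.27 in WT leaves (SE 0.07, limma adjusted p = 0.0307). The WT call was kept in 7 of the 12 fits that left out 1 array, with values from 0.23 to 0.3, and was lost with spikes. The interaction was 1.3 (SE 0.10, limma adjusted p = 1.23e-07).

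UGT76E12 (AT3G46660), of the same subfamily, stood at 1.58, 0.53 and 0.38 in CPR5-C leaves with dexamethasone, against -0.09, -0.01 and -0.01 with water. WT leaves gave 0.01, 0.05 and -0.04 with dexamethasone, against -0.05, 0.2 and -0.22 with water. All CPR5-C dexamethasone arrays were above the CPR5-C water arrays, 1 of them by much more. Its rise of 0.86 (SE 0.22, limma adjusted p = 0.00459) became 0.49 without replicate 1 of the dexamethasone group and was still called. UGT76E1 (-0.02) and UGT76E2 (-0.07), also of this subfamily, were not called in the deposited scaling, and both were called higher with spikes.

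UGT71B1 (AT3G21750) stood at 0.84, 0.88 and 0.86 in CPR5-C leaves with dexamethasone, against -0.12, -0.01 and 0.04 with water. In WT leaves it stood at 0.09, -0.09 and 0.01 with dexamethasone, against -0.63, -0.61 and -0.7 with water. It rose by 0.89 in CPR5-C leaves (limma adjusted p = 4.46e-08) and by 0.65 in WT leaves (limma adjusted p = 2.1e-05; SE 0.07 each), and the interaction of 0.24 was not called (limma adjusted p = 0.0613). That interaction was called without replicate 3 of the CPR5-C water group (0.28) or replicate 1 of the WT dexamethasone group (0.29), and with spikes (0.83). With spikes the rise of UGT71B1 in WT leaves lost its call. UGT72B3 (AT1G01420) stood at 0.62, 0.64 and 0.76 in CPR5-C leaves with dexamethasone, against -0.04, 0.15 and 0.02 with water. Its WT values were 0.05, -0.07 and -0.02 with dexamethasone, against -0.4, -0.53 and -0.61 with water. The rises were 0.63 in CPR5-C leaves and 0.5 in WT leaves (SE 0.08 each). With spikes the WT change of 0.33 was not called, and the interaction of 0.71 was.

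UGT87A2 (AT2G30140), known for a role in flowering time, stood at 0.89, 0.85 and 0.59 in CPR5-C leaves with dexamethasone, against -0.06, -0.06 and -0.07 with water. Its WT values were 0.1, 0.11 and 0.06 with dexamethasone, against -0.09, -0.2 and -0.08 with water, also without overlap. It rose by 0.84 (SE 0.08, limma adjusted p = 3.42e-07), and the WT change of 0.21 was not called, except without replicate 3 of the CPR5-C dexamethasone group. UGT88A1 (AT3G16520), singled out after its values were seen, stood at -0.41, -0.44 and -0.22 in CPR5-C leaves with dexamethasone, against 0.1, 0.09 and 0.18 with water. It fell by 0.48 (SE 0.07, limma adjusted p = 6.97e-05), a call lost with spikes, and its interaction of -0.51 became 0.07 there.

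The UGT85A subfamily split by gene. UGT85A3 stood at 1.01, 0.23 and 0.4 in CPR5-C leaves with dexamethasone, against -0.01, -0.26 and 0.01 with water, without overlap. WT leaves gave -0.13, -0.1 and -0.17 with dexamethasone, against -0.01, 0.2 and 0.11 with water. It rose by 0.63 (SE 0.15, limma adjusted p = 0.00257), and by 0.4, still called, without replicate 1 of the dexamethasone group. UGT85A5 rose by 0.29 (limma adjusted p = 0.0342), a call lost without replicate 3 of the CPR5-C dexamethasone group (0.16) or replicate 1 (0.22) or 3 (0.32) of the CPR5-C water group. UGT85A2 stood at -0.33, -0.56 and -0.44 in CPR5-C leaves with dexamethasone, against -0.1, 0.03 and 0.03 with water. In WT leaves the values were -0.03, 0.08 and -0.07 with dexamethasone, against 0.33, 0.24 and 0.21 with water. The WT water arrays were the highest of all, and UGT85A2 fell by 0.43 in CPR5-C leaves (SE 0.08, limma adjusted p = 0.000233), a call lost with spikes. UGT85A4 stood at -0.43, -0.53 and -0.28 in CPR5-C leaves with dexamethasone, against -0.06, 0.14 and 0.19 with water. WT leaves gave -0.12, 0.12 and 0.11 with dexamethasone, against -0.07, 0.27 and 0.06 with water. It fell by 0.5 in CPR5-C leaves (SE 0.10, limma adjusted p = 0.000881), and neither this change nor the interaction was called with spikes. UGT85A7 (-0.19) was not called in the deposited scaling, except without replicate 3 of the WT dexamethasone group, and was positive with spikes (0.22), also without a call.

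Small changes made up the rest of the calls in CPR5-C leaves. UGT71C4 fell by 0.17 (limma adjusted p = 0.0403), with a call in 5 of the 12 fits that left out 1 array, and UGT73C7 fell by 0.21 (limma adjusted p = 0.0268), in the deposited scaling; both were positive with spikes. The UGT73C7 call was lost without replicate 1 (-0.18) or 3 (-0.2) of the CPR5-C dexamethasone group or replicate 1 of the CPR5-C water group (-0.15). All families with more than 1 member held calls in both directions in the deposited scaling, except UGT84, where 2 of 5 were higher and none lower. Of all probe sets 23.3% were higher and 24.6% lower.

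**Figure D5:**
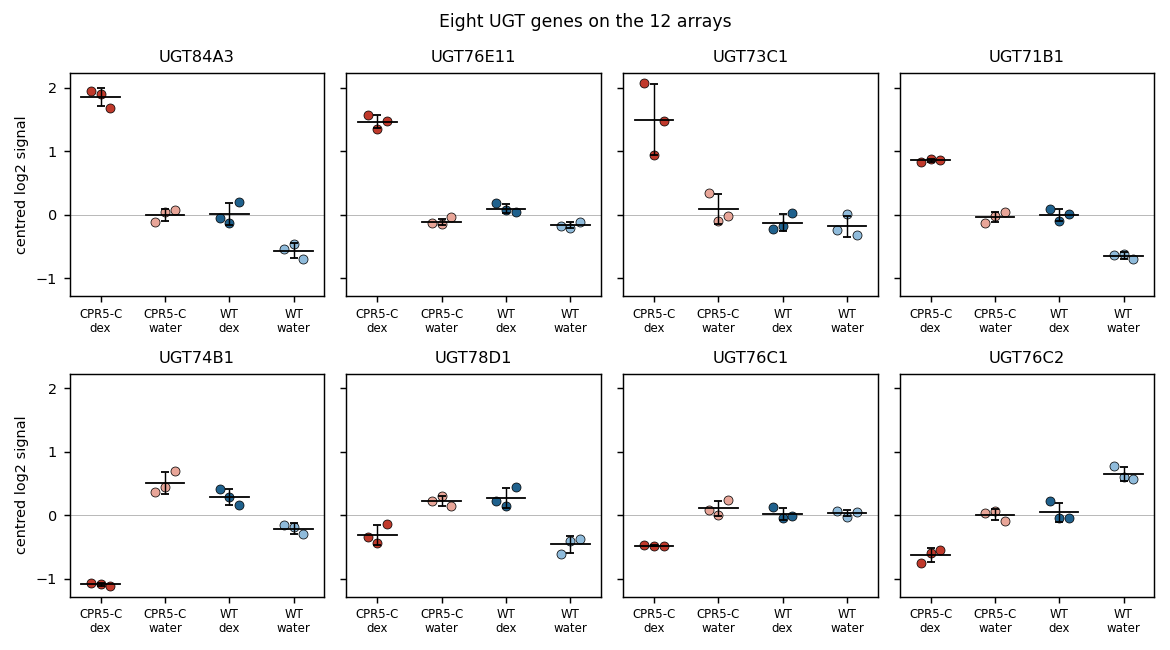
Centred log2 signal of 8 UGT genes on each of the 12 arrays, with the group mean as a line and the SD as bars (n = 3). The top row shows genes highest on the CPR5-C dexamethasone arrays, and the WT water arrays stand apart from both middle groups for UGT84A3, UGT71B1, UGT74B1, UGT78D1 and UGT76C2.

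The WT water arrays stood apart for 9 members. For 6 members (UGT71B1, UGT72B3, UGT74D1, UGT78D2, UGT84A3 and UGT87A2) all 3 WT water arrays were below the other 9 arrays, and for 3 members (UGT73B1, UGT76C2 and UGT85A2) they were above. Of all probe sets 5.17% were below and 3.79% above in this way. The CPR5-C dexamethasone arrays were above the other 9 for 12 members and below for 9, beside 21% and 20.6% of all probe sets.

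The 2 groups of water-treated leaves differed in some UGT transcripts. Comparing CPR5-C water with WT water, 6 members were called higher and 3 lower, or 19.1%, beside 7.08% of all probe sets (4.25% higher and 2.83% lower). Called higher were UGT74B1 (0.72), UGT78D1 (0.68), UGT71B1 (0.61), UGT72B3 (0.56), UGT84A3 (0.56) and UGT78D2 (0.38), with SEs of 0.07 to 0.10. Called lower were UGT76C2 (-0.64), UGT73B1 (-0.47) and UGT85A2 (-0.28). This comparison shares the WT water arrays with that of dexamethasone in WT leaves, so their changes are not independent of each other. All of these members were also called in the same direction with dexamethasone in WT leaves. None was called between CPR5-C water and WT dexamethasone. A difference of genotype thus cannot be told apart from a trait of the WT water arrays. The same holds for an effect of dexamethasone in WT leaves on these members. UGT85A2 kept its call in 4 of the 12 fits that left out 1 array here and in 4 of 12 for dexamethasone in WT leaves, where its change was -0.26, with values from -0.3 to -0.23 here and -0.31 to -0.23 there. UGT74D1, with 0.27 for dexamethasone in WT leaves, kept its call there in 7 of 12 (0.24 to 0.3). With spikes 3 members were called higher and 1 lower between the water groups, beside 2.03% of all probe sets called, and 34% of all calls were higher, against 60.1% in the deposited scaling.

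Between CPR5-C leaves with water and WT leaves with dexamethasone no member was called by limma, and 3 had an unadjusted p under 0.05, UGT76E11 (-0.21), UGT74B1 (0.22) and UGT74F1 (-0.17). Of all probe sets 1.51% were called. Changes ran from -0.21 to 0.22 with a median of 0.04. For UGT71B1, CPR5-C water averaged -0.03 ± 0.08 and WT dexamethasone 0.0 ± 0.09 (SD, n = 3 each).

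Under dexamethasone, CPR5-C leaves differed from WT leaves in 12 higher and 10 lower members, or 46.8%, beside 47.4% of all probe sets (23.3% higher and 24.1% lower). The changes ran from -1.38 to 1.83 with a median of 0.05, against 0.01 for all probe sets. UGT84A3 (1.83), UGT73C1 (1.62) and UGT76E11 (1.36) were the highest and UGT74B1 (-1.38) the lowest. UGT76D1 (0.38) and UGT73B5 (0.31) were called here and not within CPR5-C leaves. UGT76D1 lost that call without replicate 2 (0.34) or 3 (0.38) of the CPR5-C dexamethasone group or replicate 1 (0.33) or 2 (0.32) of the WT dexamethasone group, and UGT73B5 without replicate 2 of the CPR5-C (0.26) or WT (0.23) dexamethasone group. With spikes 36 members were called higher and UGT74B1 (-0.86) alone lower, beside 81% of all probe sets called. The median of all probe sets was 0.53, and 91.7% of all calls were higher, against 49.2% in the deposited scaling.

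Adjacent genes had like calls in some pairs and opposite calls in others. By the gene table, 24 members form 14 pairs of adjacent genes. Both genes were called in CPR5-C leaves in 6 pairs. The 47.9% of all probe sets called there is a share of single probe sets, not of pairs, and cannot be set against this count. Adjacent genes outside the family were not counted, so no share of pairs was at hand. Both were higher in UGT85A5 with UGT85A3 and in UGT84A3 with UGT84A4, both were lower in UGT71C5 with UGT71C4 and in UGT76C2 with UGT76C1, and calls were opposite in UGT71C4 with UGT71C3 and in UGT85A2 with UGT85A5, all in the deposited scaling. Related probe sets could share target sequence, and cross-hybridisation was not tested.

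Of 6 loci known as UGTs only by a synonym 4 had a named single-gene probe set, and their values are in the deposited scaling. SGT, the sterol enzyme also called UGT80A2, rose by 0.54 in CPR5-C leaves and was called. GT72B1, also called UGT72B1, which conjugates monolignols and chlorinated compounds, changed by 0.0 in CPR5-C leaves and 0.65 in WT leaves, with an interaction of -0.65 that was called. It stood at 0.09, 0.03 and -0.05 in CPR5-C leaves with dexamethasone, against -0.05, -0.03 and 0.15 with water. WT leaves gave 0.07, 0.09 and 0.27 with dexamethasone, against -0.56, -0.5 and -0.46 with water. As for UGT72B3, the WT water arrays were the lowest. The flavonoid enzymes UF3GT (UGT79B1, 0.16) and AT5G54010 (UGT79B6, -0.18) were not called in CPR5-C leaves.

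Genes that act before or after UGTs were covered in part, again in the deposited scaling. Of 32 loci for UDP-sugar supply 1 had a named single-gene probe set, USP, with a change of -0.06 in CPR5-C leaves and no call. Among 20 β-glucosidases of the BGLU family, which hydrolyse glucosides, 6 rose and 3 fell in CPR5-C leaves. That is 45% called, beside 47.9% of all probe sets. BGLU45, which releases monolignols from their glucosides, rose by 8.44 (SE 0.08, limma adjusted p = 1.82e-17), and BGLU47 fell by 3.27. Of 12 glutathione transferases of the tau and phi classes, another group of conjugating enzymes, 2 rose and 4 fell, from GSTU26 (2.41) to GSTU20 (-3.24). Here 50% were called, also near the share of all probe sets.

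Some markers of leaf cell types and of senescence changed in CPR5-C leaves in the deposited scaling, and others were not called or not measured. Of 4 guard cell markers 2 had a named single-gene probe set and both fell, FMA by 0.28 and AT1G22690 by 3.06. AT1G22690 was also called lower with dexamethasone in WT leaves (-0.61). RCA was the 1 of 5 mesophyll markers with such a probe set and changed by -0.07 without a call. SWEET11, 1 of 3 phloem markers, rose by 0.51, and SAG29, 1 of 5 senescence markers, rose by 6.42. Of 4 epidermis markers none had a named single-gene probe set. Their part in the UGT changes was not tested.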

How the data were processed

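RNA from 12 leaf samples had been hybridised to ATH1 arrays, 1 per sample. The submitters' processing notes name RMA, and the deposited signals were read as log2, the scale RMA gives, since the file states no base. Of 22810 probe sets, 64 controls were left out of the tests. The median over the 12 arrays was 0 for each probe set (tolerance 1e-06), so no absolute level, detection call or filter on dim probe sets was possible. The number of arrays limits the precision. Probe sets were named from the platform annotation with symbols updated through a TAIR10.1 gene table, whose coordinates were not used; 13513 had 1 gene, 503 several and 8730 none, and 3 probe sets with several genes including a UGT were not used.

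Groups came from the sample labels. All 12 arrays entered 1 fit of group means (limma 3.58.1, R 4.3.3; 8 residual and 5.79 prior degrees of freedom), and p-values were adjusted within each of 6 comparisons. The fit was tested on simulated data, in which probe sets were independent and few of them changed. That test bears neither on the scaling of arrays nor on changes as widespread as these. The members and the gene lists were chosen with earlier results of these data known. Array values are given for the 8 largest called rises and falls of dexamethasone in CPR5-C leaves, the 4 largest each way in other comparisons and the 2 members of smallest p per acceptor group; other members may be named with their change. Alternatives were the replicate block, the arrays of the compared groups alone, median centring, scaling to 24 poly-A spike probe sets, trended and robust variance, array weights, single-gene probe sets alone, 2 stricter thresholds and leaving out each array. Figures were drawn with matplotlib 3.10.9.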

Additional observations from a re-analysis of the deposited data

Results flagged for a closer look

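For 15 UGT genes the response to dexamethasone differed between CPR5-C and WT leaves by the limma interaction term (change in CPR5-C leaves minus change in WT leaves, log2). It was positive for UGT73C1 (1.35), UGT76E11 (1.3), UGT84A3 (1.27), UGT85A3 (0.87), UGT76E12 (0.84), UGT87A2 (0.63) and UGT84A4 (0.51). It was negative for UGT74B1 (-2.1), UGT78D1 (-1.27), UGT72E1 (-0.6), UGT76C1 (-0.59), UGT71C5 (-0.57), UGT88A1 (-0.51), UGT85A4 (-0.45) and UGT71C4 (-0.38) in the deposited scaling, where the last, UGT71C5, UGT88A1 and UGT85A4 turned positive with spikes. With spikes the interactions of UGT76C1 (-0.00) and UGT72E1 (-0.02) were not called either, and of the 8 negative ones UGT74B1 and UGT78D1 kept their call. UGT76E12 kept its call in 4 and UGT85A4 in 5 of the 12 fits that left out 1 array, with values from 0.46 to 1.06 and from -0.54 to -0.37; the lowest UGT76E12 value came without replicate 1 of the CPR5-C dexamethasone group. These 15 are 31.9% of the members, beside 38.5% of all probe sets and 33.7% of single-gene probe sets tested alone. The WT water arrays enter each of these values.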

How the results depend on the processing

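With scaling to poly-A spikes, counts higher and lower and the members' median change were 30, 1 and 0.44 for dexamethasone in CPR5-C leaves; 1, 2 and -0.15 for dexamethasone in WT leaves; 32, 2 and 0.59 for the interaction; 36, 1 and 0.57 for CPR5-C against WT with dexamethasone; 3, 1 and -0.00 for CPR5-C against WT with water. For CPR5-C water against WT dexamethasone no member was called and the median was 0.15, beside 0.989% of all probe sets called. Signs turned with a call before or after for these members. In CPR5-C leaves they were UGT84B1 (0.34), UGT76E1 (0.39), UGT76E2 (0.35), UGT73C7 (0.2), UGT71C4 (0.24), UGT71B6 (0.38), UGT80B1 (0.37) and UGT73B4 (0.14). In the interaction they were UGT84B1 (0.55), UGT78D3 (0.53), UGT78D2 (0.54), UGT76E2 (0.54), UGT76C2 (0.55), UGT71C4 (0.2), UGT71C5 (0.02), UGT88A1 (0.07), UGT71B6 (0.48), UGT74F1 (0.5), UGT85A4 (0.14) and UGT71C1 (0.49). With dexamethasone, between genotypes, they were UGT84B2 (0.47), UGT76E2 (0.49), UGT76C1 (0.02), UGT73C7 (0.35), UGT73B1 (0.07), UGT85A2 (0.08), UGT71C4 (0.33), UGT71C5 (0.08), UGT88A1 (0.18), UGT71B6 (0.5), UGT74F1 (0.4), UGT85A4 (0.07), UGT80B1 (0.44), UGT73C2 (0.45) and UGT73B4 (0.36). Spike scaling subtracts 1 value per array, so within a comparison it moves every gene by the same amount. Signs turned where the deposited change was opposite to that amount and smaller than it. Why the spikes differed between arrays was not tested. Uncalled members also turned sign: 4 in CPR5-C leaves, 18 in WT leaves, 7 in the interaction, 2 and 11 between genotypes with dexamethasone and water, and 13 for CPR5-C water against WT dexamethasone.

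Requiring a change of at least 1 left 3 higher and 1 lower in CPR5-C leaves, 0 and 0 in WT leaves, 3 and 2 in the interaction, 3 and 1 between genotypes with dexamethasone, and 0 and 0 with water, by its construction. Leaving out 1 array gave 11 to 13 higher and 10 to 14 lower in CPR5-C leaves (median 0.0 to 0.08), 6 to 9 and 2 to 3 in WT leaves, 6 to 7 and 7 to 9 in the interaction (median -0.02 to 0.03), 10 to 13 and 9 to 11 between genotypes with dexamethasone (median 0.02 to 0.07), 6 to 7 and 2 to 3 with water, and medians of 0.01 to 0.09 for CPR5-C water against WT dexamethasone. Deviations from the group means correlated from -0.207 to 0.362 between same-numbered samples of different groups. Between differently numbered samples they correlated from -0.395 to 0.418. With 3 arrays per group these values cannot decide whether the replicate numbers pair the samples. The replicate block gave 12 higher and 12 lower in CPR5-C leaves, losing UGT71C3 and UGT71C4; UGT85A2 was lost for dexamethasone in WT leaves and between the water groups. All other alternatives kept these counts within 1.5 times.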
